A study of Mus musculus with 12 samples.

Results

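The let-7 family is a set of microRNA genes that make nearly the same small RNA. The 10 members described here are the mouse hairpin genes Mirlet7a-1, Mirlet7a-2, Mirlet7b, Mirlet7c-1, Mirlet7c-2, Mirlet7d, Mirlet7f-1, Mirlet7f-2, Mirlet7g and Mirlet7i, chosen by name from 2201 microRNA genes of the GENCODE M21 annotation. Mirlet7e was kept out because it lies in the miR-99b cluster. A read belonged to the family when it was at least 18 nt long and matched a member's hairpin exactly on the sense strand. Reads that fit several members were counted for a merged feature, whose name joins the genes with a slash, which gave 16 let-7 features of 2618 features with reads over all hairpins.

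A microRNA hairpin is cut by Drosha in the nucleus and by Dicer in the cytoplasm, which frees a duplex of a 5p and a 3p strand. An Argonaute protein such as Ago2 then holds one strand and uses its seed, bases 2 to 8, to find target messenger RNAs. In embryonic stem cells the RNA-binding protein Lin28 is known to hold back let-7 maturation by binding the precursor, among other places at a GGAG element of its loop, and by recruiting an enzyme that adds a tail of uridines. The let-7 family rises when stem cells differentiate, and it is known for targets that include Lin28 itself, Hmga2 and Myc.

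The study cloned small RNAs of 18 to 75 nt from mouse embryonic stem cells into 12 libraries. TT-FHAgo2 and TT-Ago2 are clonal lines kept in 0.1 µg/mL doxycycline and brought to 2.5 µg/mL, a dose the labels tie to the Ago2 level of wildtype cells. They are called tagged and untagged here after the names of the lines. FLAG immunoprecipitates (IPs) were made from TT-FHAgo2 (tagged IP, 2 libraries) and from TT-Ago2 (untagged IP, 2 libraries), with total small RNA of TT-FHAgo2 (tagged input, 2 libraries) and TT-Ago2 (untagged input, 2 libraries), all at 2.5 µg/mL and all cloned by circularization, which needs no 5′ phosphate. Another 4 libraries were cloned by ligation, which needs a 5′ phosphate, with 1 library for each of Dicer-null cells, TT-FHAgo2 at 2.5 µg/mL doxycycline (dox), TT-FHAgo2 without doxycycline (no dox), and wildtype cells. The Dicer-null, no dox and wildtype cells are labelled as without the drug. The series' design text speaks of cells without Ago proteins, and the labels do not name the Argonaute genotype of a line. The labels do not say that libraries numbered 1 and 2 of a group came from separate cultures, so a p-value measures only the spread between these libraries. In bulk RNA, fewer cells of a type and less RNA per cell cannot be told apart.

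Libraries held 14474875 to 78762632 reads, and the longest read was 50 or 51 nt in the circularized and 40 nt in the ligation libraries. Hairpin reads made up 50.7 to 58.3% of reads in the tagged IPs, 9.19 to 13.1% in the untagged IPs, 1.81 to 3.07% in the tagged inputs and 3.32 to 3.36% in the untagged inputs. They made up 1.42% in Dicer-null cells, 10.3% in the dox library, 1.30% in the no dox library and 21.1% in wildtype cells. The stem cell microRNAs of the miR-290 and miR-302 clusters, summed, stood at 213 CPM in Dicer-null cells and 345 CPM without doxycycline, and at 8025 to 307711 CPM in the other 10 libraries, where CPM is the count per 1000000 reads of the library. Fragments of the Dicer1 transcript were at 1.56 CPM in Dicer-null and 1.67 CPM in wildtype cells. Such fragments, whose place relative to a deletion is not known here, check no label.

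The family shares its seed and differs in few bases. The 7 mature 5p sequences are shown because the reads of this report are sorted by them. They are taken from RefSeq (GRCm38.p6), run 5′ to 3′, and carry the seed in capitals.
let-7a-5p: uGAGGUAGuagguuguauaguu
let-7b-5p: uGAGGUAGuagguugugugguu
let-7c-5p: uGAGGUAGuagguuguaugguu
let-7d-5p: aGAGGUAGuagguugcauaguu
let-7f-5p: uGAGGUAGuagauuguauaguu
let-7g-5p: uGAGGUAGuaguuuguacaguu
let-7i-5p: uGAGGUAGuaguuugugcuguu

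All 7 sequences hold the seed GAGGUAG. Counted from 1 at the 5′ end and with let-7a-5p as the reference, let-7c-5p differs by A19G alone and let-7f-5p by G12A alone. The let-7b-5p sequence differs by A17G and A19G, let-7d-5p by U1A and U16C, and let-7g-5p by G12U and U18C. The let-7i-5p sequence is the most distant of them, with G12U, A17G, U18C and A19U. The genes Mirlet7a-1 and Mirlet7a-2 give the same 5p strand, as do Mirlet7c-1 and Mirlet7c-2, and Mirlet7f-1 and Mirlet7f-2, so most of their reads cannot be assigned to 1 locus.

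The members lie on 6 chromosomes (GENCODE M21, GRCm38). Mirlet7a-1 (chr13:48538179-48538272), Mirlet7f-1 (chr13:48537829-48537917) and Mirlet7d (chr13:48536012-48536114) sit in exons of the minus-strand long noncoding gene 6720427I07Rik. Mirlet7c-2 (chr15:85706603-85706697) and Mirlet7b (chr15:85707319-85707403) sit 716 bases apart, start to start, in an exon of the noncoding gene Lncppara. Mirlet7c-1 (chr16:77599657-77599750) lies inside Mir99ahg, 721 bases from Mir99a, and Mirlet7a-2 (chr9:41536716-41536811) lies inside 3110039I08Rik, 5291 bases from Mir100. Mirlet7f-2 (chrX:151912346-151912428) lies inside the protein-coding gene Huwe1, 868 bases from Mir98. Mirlet7g (chr9:106178840-106178927) lies inside the protein-coding gene Wdr82, and Mirlet7i (chr10:122985640-122985724) in an exon of the transcribed pseudogene D630033A02Rik.

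Loops differ between members, and 2 hairpins are shown because they stand for both kinds. The letters GGAG, searched on the hairpin's own strand after the 5p arm, are in 8 of the 10 members and not in Mirlet7b or Mirlet7c-2. The same letters are somewhere in 44.5% of the 1005 mouse hairpins of RefSeq. Capitals mark them in Mirlet7g, and the Mirlet7b hairpin has none.
Mirlet7g hairpin: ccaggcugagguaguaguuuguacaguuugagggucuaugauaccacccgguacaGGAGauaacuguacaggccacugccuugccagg
Mirlet7b hairpin: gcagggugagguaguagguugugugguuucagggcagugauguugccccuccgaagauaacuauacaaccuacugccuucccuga

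The family was a minor part of the hairpin reads in every library. It gave 0.0951% and 0.110% of hairpin reads in the tagged IPs, 0.0928% and 0.124% in the untagged IPs, 0.0651% and 0.0742% in the tagged inputs, and 0.0742% and 0.0464% in the untagged inputs. The most abundant hairpin in these 8 libraries was Mir294, a member of the miR-290 cluster. In the ligation libraries the family gave 0.0257% of hairpin reads in Dicer-null cells, 0.172% with doxycycline, 0.0536% without it and 0.0722% in wildtype cells.

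Scaled to all reads, the family stood highest in the tagged IPs. It reached 555 and 557 CPM in the tagged IPs (9117 and 16753 reads), 85.3 and 162 CPM in the untagged IPs (1511 and 2960 reads), 19.99 and 13.4 CPM in the tagged inputs (299 and 249 reads), and 24.6 and 15.6 CPM in the untagged inputs (410 and 226 reads). Both tagged IPs lay above all other circularized libraries, and both untagged IPs lay above the 4 inputs. The tagged IPs averaged 556 ± 1.30 CPM and the untagged IPs 124 ± 54.5 CPM (SD, n = 2 each), a ratio of 4.49. The ratio was 6.50 between libraries numbered 1 and 3.43 between libraries numbered 2. Against the tagged inputs, at 16.7 ± 4.66 CPM (SD, n = 2), the ratio was 33.3. Groups of 2 against 2 cannot pass 0.05 in an exact permutation test: both comparisons gave the smallest two-sided p this design allows, 0.333.

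**Figure D1:**
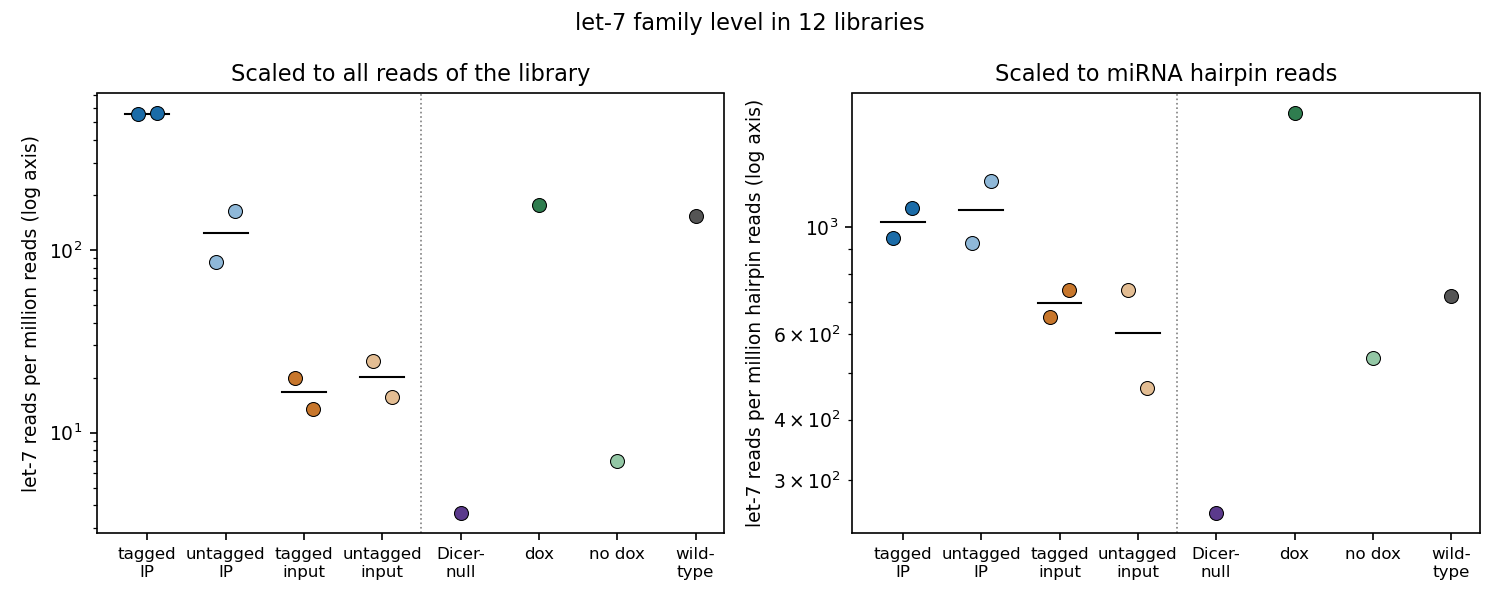
Level of the let-7 family in 12 libraries, as CPM over all reads (left) and over hairpin reads (right), both on log axes. Each point is a library, a line marks the mean of 2 libraries, and the dotted line separates the circularized from the ligation libraries. The tagged IPs stand at 555 and 557 on the left, while on the right the tagged IPs (951 and 1098) fall within the range of the untagged IPs (928 and 1244).

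The order of the IPs depended on the scale. As CPM over hairpin reads alone, the family stood at 951 and 1098 in the tagged IPs, 928 and 1244 in the untagged IPs, 651 and 742 in the tagged inputs, and 742 and 464 in the untagged inputs. Tagged and untagged IPs overlapped on this scale, and the difference of their means turned to −61.9 (exact permutation p = 1). Markers of other cell types were also higher in the same libraries. The 6 fibroblast microRNA genes (of miR-199, miR-214, miR-143 and miR-145) had reads in 8 of 8 features in both tagged IPs and in 6 and 7 of 8 in the untagged IPs. They summed to 564 and 592 CPM in the tagged IPs, 73.1 and 141 CPM in the untagged IPs, 18.0 and 8.99 CPM in the tagged inputs, and 25.3 and 11.8 CPM in the untagged inputs. The 6 neural genes (miR-9 and miR-124) summed to 606 and 779 CPM in the tagged IPs and to 99.9 and 158 CPM in the untagged IPs. The 4 blood genes summed to 4697 and 4473 CPM in the tagged IPs and to 772 and 1177 CPM in the untagged IPs, with Mir223 at 0 reads in both tagged IPs. The part of such cells in the let-7 level was not tested.

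All 7 mature forms were found in the IPs, led by let-7c, let-7a and let-7g, except that let-7f exceeded let-7g in untagged IP 2. The forms were counted by their first 20 bases, whatever the length of the read. They include reads that carried 1 extra base before the annotated start, which a hairpin does not always hold. Their sum therefore exceeds the family level, at 704 and 716 CPM in the tagged IPs. The let-7c form, from Mirlet7c-1 and Mirlet7c-2, had 150 and 333 CPM in the tagged IPs, 19.9 and 88.5 CPM in the untagged IPs, 4.35 and 7.80 CPM in the tagged inputs, and 8.28 and 7.18 CPM in the untagged inputs. The tagged IPs exceeded every other circularized library for this form.

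The let-7a form, from Mirlet7a-1 and Mirlet7a-2, had 172 and 112 CPM in the tagged IPs, 19.5 and 46.0 CPM in the untagged IPs, 5.55 and 1.56 CPM in the tagged inputs, and 6.001 and 2.003 CPM in the untagged inputs. The let-7g form, from the single gene Mirlet7g, had 143 and 85.5 CPM in the tagged IPs, 19.5 and 29.4 CPM in the untagged IPs, 5.01 and 2.26 CPM in the tagged inputs, and 6.78 and 2.07 CPM in the untagged inputs. For both forms the tagged IPs lay above the untagged IPs and these above all inputs. Within the tagged IPs, let-7c was lower than let-7a in library 1 and higher in library 2, so the order of these forms did not hold between libraries.

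The let-7f form, from Mirlet7f-1 and Mirlet7f-2, had 108 and 57.3 CPM in the tagged IPs and 15.3 and 32.6 CPM in the untagged IPs. The let-7i form had 66.1 and 68.6 CPM in the tagged IPs and 10.2 and 14.3 CPM in the untagged IPs, and let-7d had 57.4 and 42.8 CPM in the tagged IPs and 8.24 and 8.23 CPM in the untagged IPs. The let-7b form was the rarest in the IPs, with 7.97 and 17.4 CPM in the tagged IPs and 1.69 and 3.62 CPM in the untagged IPs. None of these 4 forms overlapped between tagged and untagged IPs.

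**Figure D2:**
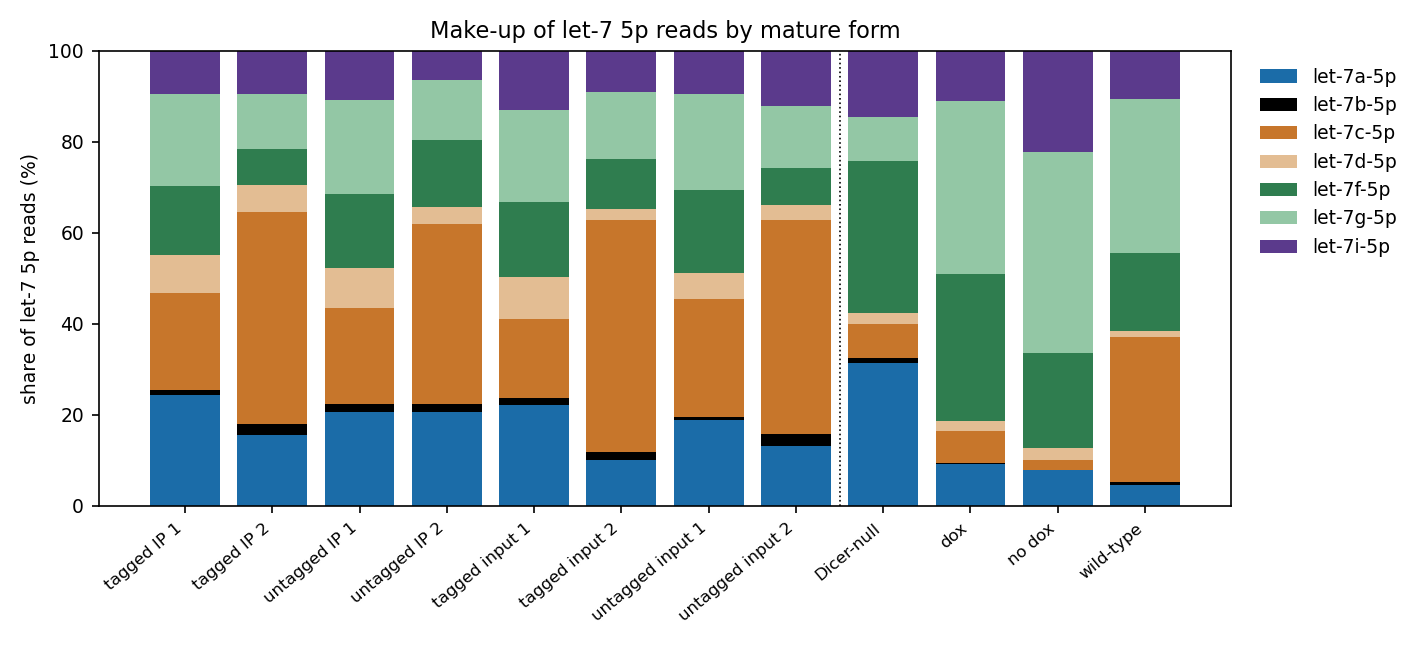
Share of each mature form among let-7 5p reads (percent) in 12 libraries, with reads that carry 1 extra 5′ base included and the dotted line between circularized and ligation libraries. The let-7c form takes 46.5% in tagged IP 2 and 31.8% in wildtype cells, but 7.17% in the dox library and 2.13% in the no dox library.

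In the fit over all hairpins, let-7 features moved with the bulk of microRNAs. Between tagged and untagged IPs, 11 of the 16 features were higher and 0 lower (edgeR quasi-likelihood test, Benjamini-Hochberg adjustment over 698 features, threshold 0.05). The background was 78.2% of all features called higher and 8.17% called lower. The median log2 fold change was 2.07 over the let-7 features (range 1.38 to 2.66) and 2.42 over all features tested. Scaled by the TMM method or by DESeq2's size factors, 0 of the 16 features were called in either direction and their median turned to −0.22 and −0.27, against 0.08 and 0.05 over all features. Scaled to hairpin reads, 0 of 12 features tested were called and their median was −0.09.

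Among single members, Mirlet7b had the largest log2 fold change, 2.66 ± 0.66 (SE, edgeR adjusted p = 0.00385). Mirlet7c-2 followed with 2.54 ± 0.82 (adjusted p = 0.00954), then Mirlet7i with 2.42 ± 0.69 (adjusted p = 0.00531), Mirlet7g with 2.29 ± 0.75 (adjusted p = 0.00986) and Mirlet7d with 2.10 ± 0.65 (adjusted p = 0.00744). Of the merged features, Mirlet7c-1/Mirlet7c-2 had 2.43 ± 0.63 (adjusted p = 0.00385), Mirlet7a-1/Mirlet7a-2 had 2.24 ± 0.92 (adjusted p = 0.0319) and Mirlet7f-1/Mirlet7f-2 had 1.93 ± 0.81 (adjusted p = 0.0352). Mirlet7a-2, with 2.10, the feature of both let-7a and both let-7c genes, with 2.04, and Mirlet7c-1, with 2.01, also passed. No difference between members was tested, and none of the distances between neighbours in this order exceeded the SE of either. In the tagged IPs, reads of Mirlet7c-2, Mirlet7a-2 and Mirlet7c-1 mostly carried an extra 5′ base, described below, and their locus is uncertain. The 5 features that did not pass were Mirlet7a-1 (1.39), Mirlet7a-1/Mirlet7c-2 (1.38), Mirlet7a-2/Mirlet7c-1 (1.39), Mirlet7f-1 (1.54) and Mirlet7f-2 (1.52), each with at most 93 reads in a library. A fit without 1 library leaves 1 in its group, so only medians are given. Without tagged IP 1, untagged IP 1 or tagged IP 2, the let-7 median was 1.90, 1.90 and 2.19. Over all features it was 2.41, 2.21 and 2.30 in the same order.

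The relatives outside the 10 members had values in the same range. Mirlet7e had 22.6 and 12.5 CPM in the tagged IPs and 3.61 and 3.18 CPM in the untagged IPs, or 2.36 ± 0.65 as log2 fold change and SE (adjusted p = 0.00457 in edgeR). Mir98, the neighbour of Mirlet7f-2, had 131 and 146 reads in the tagged IPs and 12 and 23 reads in the untagged IPs, a log2 fold change of 2.71 ± 0.71 (adjusted p = 0.00385). Under DESeq2's size factors neither was called, with 0.37 for Mir98 and −0.064 for Mirlet7e.

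Against the tagged inputs, all 16 features were higher in the tagged IPs, where 83.4% of all features were higher and 8.17% lower. The let-7 median was 4.90 and that of all features 4.86. The largest value was 5.92 ± 1.05 for Mirlet7c-2 (edgeR adjusted p = 4.22e-05) and the smallest 2.87 ± 0.95 for Mirlet7f-2 (adjusted p = 0.00806). Mirlet7c-2 had 0 and 4 reads in the tagged inputs, and most of its reads in the tagged IPs carried an extra 5′ base, described below. Scaled by TMM or by DESeq2, 0 of the 16 were called, with a let-7 median of 0.43 and 0.32 beside 0.34 and 0.22 over all features.

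The untagged line also gave let-7 reads above its input. In the untagged IPs 13 of 16 features were higher than in the untagged inputs and 0 lower, where 49% of all features were higher and 2.44% lower. The let-7 median was 2.21 and that of all features 1.91, and 0 of the 16 were called under TMM or DESeq2, where the let-7 median was 0.46 under each. Without untagged input 2, untagged IP 2 or tagged IP 2, the let-7 median by edgeR was 2.18, 2.01 and 2.21. Over all features it was 1.72, 1.46 and 1.85 in the same order. Between the inputs, tagged against untagged, 0 of the 16 features and 0% of all features were called by edgeR, with a let-7 median of −0.21 that turned to 0.13 under TMM and 0.22 under DESeq2. At an unadjusted p under 0.05, 0 let-7 features and 23 of all features passed in that comparison, and DESeq2 also called 0.

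The gain of IP over input was larger in the tagged line than in the untagged line for 4 of 16 let-7 features, tested as the difference of both gains, and smaller for 0. Of all features, 55.2% were called larger and 4.44% smaller, and the medians were 2.44 for let-7 and 2.84 for all. The 4 features were Mirlet7b, Mirlet7c-1/Mirlet7c-2, Mirlet7g and Mirlet7i, and 0 of the 16 were called under TMM or DESeq2, where the let-7 median turned to −0.18 and −0.27. A fit without 1 library leaves 1 in its group, so calls are not given. Without tagged IP 1, tagged IP 2, tagged input 2 or untagged IP 1, the let-7 median was 2.25, 2.16, 2.10 and 1.92. Over all features it was 2.82, 2.70, 2.46 and 2.62 in the same order. The let-7 median was 1.99 beside 2.29 without untagged input 1, and 2.72 beside 3.40 without tagged input 1.

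**Figure D3:**
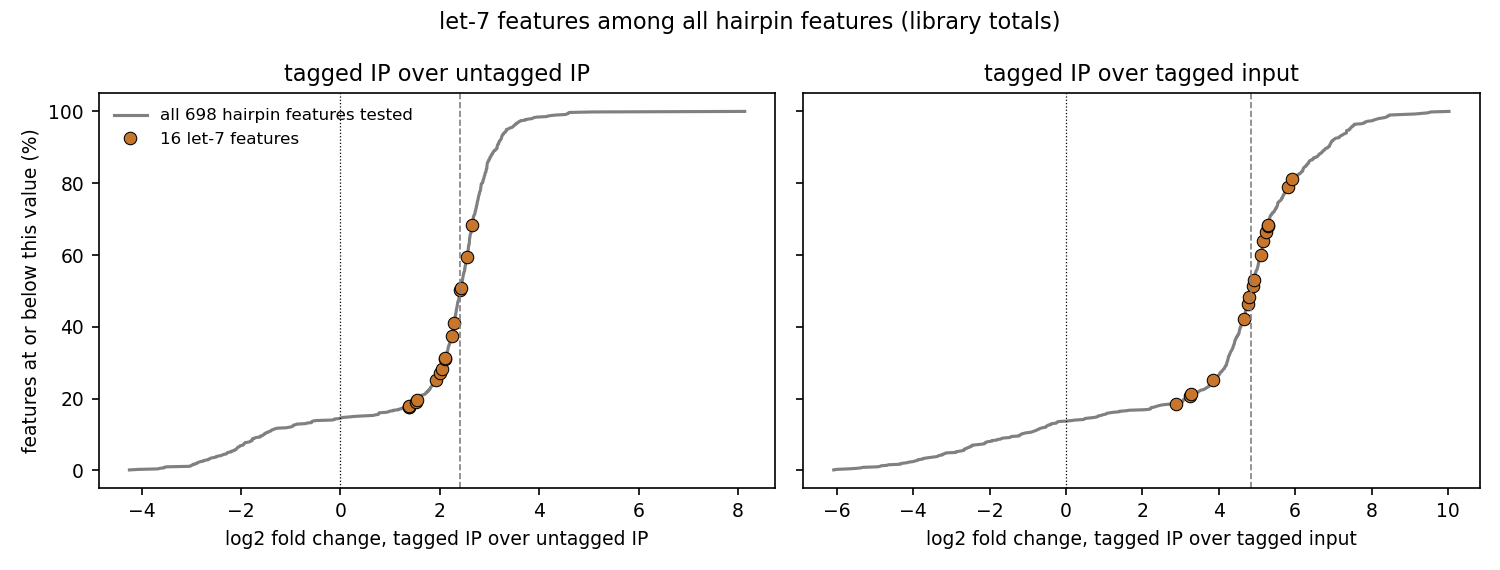
Cumulative share of 698 hairpin features (grey) by log2 fold change at library-total scaling, for tagged IP over untagged IP (left) and over tagged input (right), with 16 let-7 features as points and the median of all features as a dashed line (2.42 and 4.86). The let-7 points lie to the right of 0 on both sides and around the dashed lines; with TMM or DESeq2 scaling their median on the left turns to −0.22 and −0.27.

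In the circularized libraries many let-7 reads began 1 base before the annotated 5p start. A share of 49.1% and 73.2% of 5p reads carried such an extra base in the tagged IPs, 36.4% and 79.6% in the untagged IPs, 48.1% and 77.2% in the tagged inputs, and 55.2% and 50.7% in the untagged inputs. The groups overlapped, and the lowest and the highest share were both in untagged IPs. In the ligation libraries the share was 0% of 280 reads in Dicer-null cells, which allows up to 1.07%, 0.468% with doxycycline, 1.06% without it and 0.343% in wildtype cells. The share moved with the cloning protocol, from which sequencing run and library cannot be told apart.

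The added base was mostly T, also in forms whose hairpins hold another base there. An extra T was on 40.4% and 61.5% of 5p reads in the tagged IPs and on 0% in all 4 ligation libraries. The hairpins have a T at this place in Mirlet7a-2 and Mirlet7c-1 alone. They have A in Mirlet7a-1, Mirlet7d and Mirlet7f-2, G in Mirlet7b, Mirlet7c-2 and Mirlet7f-1, and C in Mirlet7g and Mirlet7i. Yet let-7f reads with an extra T numbered 867 and 1255 in the tagged IPs, beside 725 and 243 from the annotated start, and let-7g reads with an extra T 848 and 1565, beside 1291 and 714. The reads are shown for let-7f, where no hairpin holds the T, and for let-7c, where Mirlet7c-1 does, with the extra base in capitals.
let-7f read with extra T: Ttgaggtagtagattgtatagtt
let-7c read with extra T: Ttgaggtagtaggttgtatggtt

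Forms differed in how often they carried the extra base. In tagged IP 1 it was on 62.5% of let-7a, 59.0% of let-7f, 48.0% of let-7c, 45.04% of let-7g, 43.0% of let-7d, 19.8% of let-7b and 18.0% of let-7i reads. In tagged IP 2 it was on 86.8% of let-7a, 85.9% of let-7f, 75.9% of let-7c, 72.3% of let-7g, 68.7% of let-7d, 45.5% of let-7b and 38.4% of let-7i reads. The order of the 7 forms was the same in both tagged IPs, and let-7i was the lowest in the untagged IPs too, at 9.94% and 38.5%.

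This touches most of all the 2 members whose hairpins hold a T there. All 1414 and 2402 reads of the feature Mirlet7a-2 in the tagged IPs began with that T, and so did 953 of 953 and 6215 of 6219 reads of Mirlet7c-1. After ligation, Mirlet7a-2 had 1 read in all, with doxycycline, and Mirlet7c-1 had 0. Their 3p arms gave 0 reads in all 12 libraries. The reads of these 2 features can be T-extended copies of their partner loci, and the locus cannot be told apart, so their values are not those of the genes. With the first base left out of the match, an alternative chosen after seeing the data, 8 of 11 let-7 features were higher in the tagged than in the untagged IPs. Of all 707 features tested this way, 552 were higher and 56 lower. Mirlet7c-1/Mirlet7c-2 then had a log2 fold change of 2.16, Mirlet7a-1/Mirlet7a-2 2.14 and Mirlet7f-1/Mirlet7f-2 1.77. Mirlet7c-2, whose hairpin holds a G there, fell from 70 and 318 reads in the tagged IPs to 2 and 12. The let-7c reads with an extra G numbered 68 and 317 there, so the locus of most Mirlet7c-2 reads cannot be told either. Mirlet7a-1 fell from 52 and 64 reads to 20 and 31, and Mirlet7f-1 from 55 and 66 to 17 and 16.

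**Figure D4:**
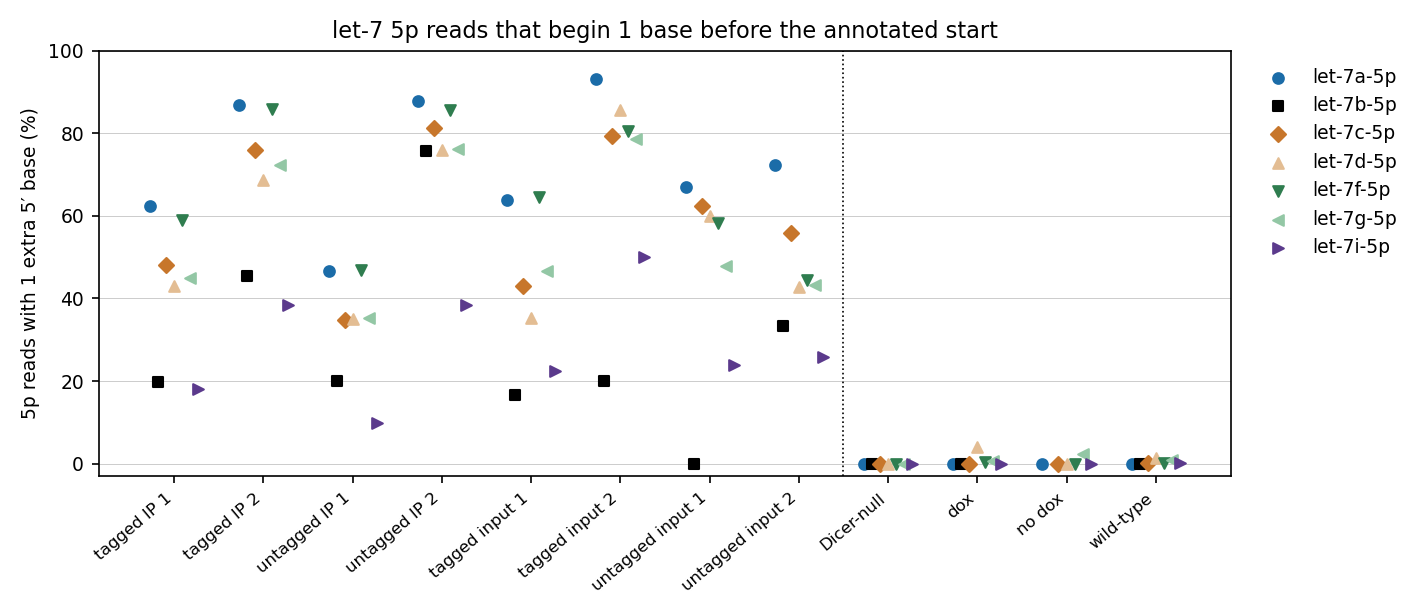
Share of 5p reads with 1 extra 5′ base (percent) for each of 7 let-7 forms in 12 libraries, with the dotted line between circularized and ligation libraries. The points of the circularized libraries reach 93.1% (let-7a, tagged input 2), those of the ligation libraries lie at or under 4.03%, and let-7i is the lowest of the 7 in both libraries of each IP.

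Arms were used unequally. The 5p arm gave 93.6% and 92.3% of let-7 reads in the tagged IPs, 90.3% and 90.1% in the untagged IPs, 87.6% and 82.7% in the tagged inputs, and 91.0% and 81.9% in the untagged inputs. The tagged IPs lay above the untagged IPs and the tagged inputs without overlap (exact two-sided permutation p = 0.333, the smallest possible). In the ligation libraries the 5p arm gave 69.7% in Dicer-null cells, 99.2% with doxycycline, 83.2% without it and 97.8% in wildtype cells.

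Mirlet7d was the member whose 3p arm was strong in the IPs. Its 3p arm, tailed reads included, had 31.1 and 39.4 CPM in the tagged IPs, 6.21 and 13.7 CPM in the untagged IPs, 1.003 and 1.02 CPM in the tagged inputs, and 1.08 and 1.73 CPM in the untagged inputs. This compares with 57.4 and 42.8 CPM for its 5p form in the tagged IPs. In the ligation libraries the 3p arm of Mirlet7d had 1 read in Dicer-null cells, 22 with doxycycline, 7 without it and 29 in wildtype cells. The 3p arm shared by Mirlet7a-1 and Mirlet7c-2 had 53 and 113 reads in the tagged IPs, Mirlet7g 40 and 79, and Mirlet7i 27 and 29, while Mirlet7b, Mirlet7f-1 and Mirlet7f-2 had at most 17 in either library.

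Tails are bases at the 3′ end of a read that the hairpin does not hold. All members but Mirlet7f-1 and Mirlet7i hold a U right after the annotated 5p strand. A T added there was therefore counted as a match for every form but let-7i, as let-7f with that T matches Mirlet7f-2. Reads with 1 or 2 such bases made up 5.27% and 4.03% of let-7 reads in the tagged IPs, 3.39% and 6.45% in the untagged IPs, 6.56% and 5.68% in the tagged inputs, and 5.75% and 5.44% in the untagged inputs. Over all hairpins the tailed share was 10.4% and 9.41% in the tagged IPs, 7.81% and 9.82% in the untagged IPs, 11.99% and 10.8% in the tagged inputs, and 11.4% and 8.84% in the untagged inputs, above the let-7 share in each of these libraries. After ligation the let-7 share was 8.60% in Dicer-null cells, 13.4% with doxycycline, 31.2% without it and 14.4% in wildtype cells. Over all hairpins it was 16.2%, 15.3%, 17.5% and 16.7% in the same order, so the no dox library went the other way. Among the tails counted in the tagged IPs, those of A led, with 3.94% and 2.80% of let-7 reads. Tails of T, which stand for uridines, were on 0.790% and 0.653% in the tagged IPs, 1.09% and 1.17% in the untagged IPs, 1.88% and 1.89% in the tagged inputs, and 1.15% and 1.67% in the untagged inputs. The T share of the tagged IPs was lower than that of the untagged IPs and of the tagged inputs without overlap (exact permutation p = 0.333, the smallest possible). Reads with any tail numbered 15 to 704 a library in these groups. With each distinct sequence counted once, the difference in T share turned to 0.70 percentage points against the untagged IPs and to 3.39 against the tagged inputs.

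T tails, as counted here, took a larger share of 3p than of 5p reads in the ligation libraries. Of 3p reads, 12.5% carried a T tail in Dicer-null cells (2 of 16 reads, 95% exact interval 1.55 to 38.3%), 38.5% in the dox library (20 of 52, 25.3 to 53.0%), 66.7% in the no dox library (50 of 75, 54.8 to 77.1%) and 37.8% in wildtype cells (59 of 156, 30.2 to 45.9%). The no dox interval does not overlap the other intervals, but the mix of 3p strands differed. Mirlet7d, with few T tails, gave 22 of the 3p reads with doxycycline, 7 without it and 29 in wildtype cells. On the Mirlet7a-1/Mirlet7c-2 strand alone the T share was 64% with doxycycline, 66.7% without it and 47.3% in wildtype cells. The intervals cover counting error only, as do all those of single libraries. On the 5p arm the T share was 2.73% in Dicer-null cells, 0.392% with doxycycline, 1.65% without it and 0.378% in wildtype cells. Because a T added to the full 5p strand mostly counted as a match, these values cannot show how often that strand was tailed, or how the arms compare. In the circularized libraries 5.17 to 15.6% of 3p reads had a T tail, in libraries where the 3p reads of Mirlet7d were the most numerous. Most of these tails in the ligation libraries were on the 3p strands of Mirlet7a-1 and Mirlet7c-2, which are identical, and of Mirlet7f-2. The capital marks the added T.
Mirlet7a-1 3p read with T tail: ctatacaatctactgtctttcT
Mirlet7f-2 3p read with T tail: ctatacagtctactgtctttcT

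For the Mirlet7a-1/Mirlet7c-2 strand alone, T tails were on 1 of 8 reads in Dicer-null cells, 16 of 25 with doxycycline, 36 of 54 without it and 53 of 112 in wildtype cells. They were on 28 of 53 and 47 of 113 reads in the tagged IPs and on 3 of 7 and 13 of 35 in the untagged IPs. Mirlet7f-2 had 0 such reads of its 3p arm in Dicer-null cells, and T tails on 2 of 4 with doxycycline, 12 of 12 without it and 6 of 9 in wildtype cells. The level of the Mirlet7a-1/Mirlet7c-2 strand was 2.03 CPM without doxycycline and 3.47 CPM in wildtype cells, a ratio of 0.586 (0.415 to 0.818). The let-7a 5p form stood at 0.565 CPM without doxycycline and 8.09 CPM in wildtype cells, a ratio of 0.0698 (0.0385 to 0.117). The let-7c 5p form stood at 0.151 CPM without doxycycline and 54.5 CPM in wildtype cells, a ratio of 0.00277 (0.000753 to 0.00709). Both 5p forms also come from a gene that does not make this 3p strand, Mirlet7a-2 or Mirlet7c-1. Work in human cells sorts let-7 precursors into a class that gets a single added uridine before Dicer and a class that does not. The first holds let-7a-1, let-7b, let-7d, let-7f-1, let-7f-2, let-7g and let-7i, the second let-7a-2 and let-7c-1. Of 3p reads from single genes of the first class, 13.6% in wildtype cells and 66.7% without doxycycline had T tails. The share was 14.8% with doxycycline, 12.5% in Dicer-null cells and 1.46 to 7.69% in the circularized libraries. Mirlet7d, in that class, had T tails on 0 of 29 reads in wildtype cells, 0 of 7 without doxycycline and 2 of 22 with it. Mirlet7a-2 and Mirlet7c-1 had 0 reads of their own 3p arm here.

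Tails of C were found mostly after ligation. On the 5p arm they were on 4.55% of reads in Dicer-null cells, 7.10% with doxycycline (398 of 5606 reads), 6.59% without it and 7.84% in wildtype cells (436 of 5561), and on 0 to 0.283% in the 8 circularized libraries. Over all hairpins, C tails were on 4.28 to 6.40% of reads in the ligation libraries and 0.266 to 0.881% in the circularized ones. Protocol and library cannot be told apart here.

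In the ligation libraries, where each condition has 1 library and no test is possible, the family was low in the Dicer-null and no dox libraries. It stood at 3.64 CPM in Dicer-null cells (287 reads), 176 CPM with doxycycline (4911 reads), 6.97 CPM without it (185 reads) and 152 CPM in wildtype cells (4912 reads). The ratio of Dicer-null over wildtype cells was 0.0239 (95% exact interval 0.0212 to 0.0270), and that of the no dox over the wildtype library 0.0458 (0.0393 to 0.0530). The dox over no dox ratio was 25.3 (21.9 to 29.5), and the dox over wildtype ratio 1.16 (1.11 to 1.21). The fibroblast marker sum was 0.444 CPM in Dicer-null cells, 169 CPM with doxycycline, 4.18 CPM without it and 267 CPM in wildtype cells, with Mir214 at 0 reads in all 4, and its part in the let-7 level was not tested.

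Measured against hairpin reads, the Dicer-null and no dox libraries lay nearer to wildtype cells and the dox library farther from them. As CPM over hairpin reads the family had 257 in Dicer-null cells, 1717 with doxycycline, 536 without it and 722 in wildtype cells. The Dicer-null over wildtype ratio was then 0.356 (0.315 to 0.401) and the no dox over wildtype ratio 0.743 (0.638 to 0.860). The dox over wildtype ratio was then 2.38 (2.29 to 2.48), above the 2-fold line used to call single libraries.

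Of the 16 features, 6 had at least 100 reads in a pair of these libraries together. In comparisons with the Dicer-null or no dox library, the other library gave most of these reads, so the minimum favoured large differences. All 6 were at least 2-fold lower in Dicer-null than in wildtype cells (background 77.9% of 421 features lower and 5.23% higher), with a median ratio of 0.0261 against 0.00783 over all features. With a minimum of 20 reads, 8 of 11 let-7 features were lower and 1 higher (all features: 443 of 648 lower, 54 higher). The 1 higher was Mirlet7a-1, with 65 reads in Dicer-null and 6 in wildtype cells, a ratio of 4.44. All 6 were lower without doxycycline than in wildtype cells (background 85% of 386 features lower and 2.33% higher), with a median ratio of 0.0501 against 0.0155. All 6 were higher with than without doxycycline (background 78.3% of 327 features higher and 0.917% lower), with a median ratio of 35.8 against 30.5. Scaled to hairpin reads, 3 of the 6 were lower in Dicer-null than in wildtype cells (all features: 287 of 421 lower, 107 higher). Without doxycycline, 1 was lower and 1 higher than in wildtype cells (all features: 258 of 386 lower, 85 higher). With doxycycline, 4 were higher than without it (all features: 197 of 327 higher, 84 lower). With doxycycline against wildtype cells, 5 were higher (all features: 76 of 396 higher, 128 lower).

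Members differed in how low they were. Mirlet7c-1/Mirlet7c-2 had 5 reads in Dicer-null cells, 359 with doxycycline, 2 without it and 1539 in wildtype cells, a Dicer-null over wildtype ratio of 0.00133 (0.000431 to 0.00311). Mirlet7g had 25 reads in Dicer-null cells, 1845 with doxycycline, 70 without it and 1626 in wildtype cells, and a ratio of 0.00630 (0.00406 to 0.00933). Mirlet7i had 53 reads in Dicer-null cells, 485 with doxycycline, 37 without it and 480 in wildtype cells, and a ratio of 0.0452 (0.0334 to 0.0601). The intervals of Mirlet7c-1/Mirlet7c-2, Mirlet7g and Mirlet7i do not overlap, but the merged feature leaves out reads that run past the stretch its genes share. Counted as forms by their first 20 bases, let-7c had a ratio of 0.00489 (0.00302 to 0.00750) and let-7g 0.00593 (0.00390 to 0.00865), and these intervals overlap. The let-7i form, at 0.0284 (0.0201 to 0.0389), differed from both beyond counting error, in this pair of libraries. Form counts take in reads of any length. In Dicer-null cells, reads of 28 nt or more were 11 of 21 for let-7c, 2 of 27 for let-7g and 10 of 41 for let-7i. These ratios are therefore not those of strands of mature length alone.

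The make-up of the family differed between the dox and wildtype libraries. The let-7c form had 14.3 CPM with doxycycline and 54.5 CPM in wildtype cells, a ratio of 0.262 (0.235 to 0.293), a difference larger than counting error. The let-7f form had 64.4 CPM with doxycycline and 29.3 CPM in wildtype cells, a ratio of 2.19 (2.03 to 2.38). The let-7a form had 18.3 CPM with doxycycline and 8.09 CPM in wildtype cells, a ratio of 2.26 (1.95 to 2.64). The let-7g form (ratio 1.31), let-7i (1.19) and let-7d (1.84) stayed under a 2-fold difference, and let-7b had 9 reads with doxycycline and 33 in wildtype cells. Of the 6 features, 2 were at least 2-fold higher with doxycycline than in wildtype cells and 1 lower, where 2.78% of 396 features were higher and 57.6% lower. The dox and wildtype libraries come from different lines as well as different drug doses, and line and dose cannot be told apart.

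Hairpins that lie beside members differed between these libraries too. The shared mature form of Mir125b-1 and Mir125b-2, which lie in the same hosts as Mirlet7a-2 and Mirlet7c-1, had 8 reads in Dicer-null cells, 141 with doxycycline, 4 without it and 4476 in wildtype cells, or 5.07 CPM with doxycycline and 139 CPM in wildtype cells. Mir100, beside Mirlet7a-2, had 9 reads with doxycycline and 299 in wildtype cells. Mir99a, beside Mirlet7c-1, had 5 reads with doxycycline and 29 in wildtype cells. Mir98, beside Mirlet7f-2 and with the let-7 seed itself, had 36 reads with doxycycline and 28 in wildtype cells. Mirlet7e had 126 reads with doxycycline and 175 in wildtype cells. Of all 396 features compared in this pair of libraries, 57.6% were at least 2-fold lower with doxycycline.

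The same mature form can be set beside another cloning of the same line. TT-FHAgo2 at 2.5 µg/mL gave 19.99 and 13.4 CPM of the family in the circularized inputs and 176 CPM in the ligation library, and let-7c took 17.4% and 50.9% of 5p reads in the inputs and 7.17% in the ligation library. Protocol, sequencing run and library are confounded in this pair.

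Reads that ran on into the loop were a large part of the Dicer-null library's let-7 reads. Reads of 28 nt or more made up 24.4% of let-7 reads there (70 of 287 reads, 95% exact interval 19.5 to 29.8%), 0.224% with doxycycline, 4.32% without it and 0.305% in wildtype cells (15 of 4912). Of the 70 reads, 62 began at the annotated 5p start. Such long reads from the 5p start stood at 0.787 CPM in Dicer-null and 0.403 CPM in wildtype cells, a ratio of 1.95 (1.06 to 3.87). Reads of 22 nt stood at 0.851 CPM in Dicer-null and 137 CPM in wildtype cells, a ratio of 0.00620 (0.00479 to 0.00789).

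The long reads could be assigned to loci. In Dicer-null cells Mirlet7a-1 gave 23 of those from the 5p start, Mirlet7f-1 12, Mirlet7c-2 11, Mirlet7i 10, Mirlet7f-2 3, Mirlet7g 2 and Mirlet7b 1, while Mirlet7a-2, Mirlet7c-1 and Mirlet7d gave 0. In wildtype cells Mirlet7i gave 6, Mirlet7f-1 3, Mirlet7a-1 2, and Mirlet7f-2 and Mirlet7g 1 each. Sequencing ended at 40 nt in these libraries, so none of these reads can show where the RNA ended when it was longer. A read of this kind from Mirlet7f-1, found 6 times in Dicer-null and 0 times in wildtype cells, is shown with the bases past the 22 nt mature strand in capitals.
Mirlet7f-1 read of 40 nt: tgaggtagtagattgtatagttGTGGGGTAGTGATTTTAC

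Another length stood out in Dicer-null cells. Reads of 24 nt made up 25.1% of let-7 reads there (72 of 287) and 0.224% in wildtype cells (11 of 4912). From the 5p start they matched Mirlet7a-1 (37 reads, 2 in wildtype cells) and Mirlet7f-2 (23 reads, 0 in wildtype cells), with 1 read each of Mirlet7c-2 and Mirlet7f-1. The Mirlet7a-1 and Mirlet7f-2 hairpins hold UU right after the mature strand, where Mirlet7a-2 and Mirlet7f-1 do not. A mature strand of any of these genes with an added TT would match them too, so locus and tail cannot be told apart. In CPM these reads were at 0.787 in Dicer-null and 0.155 in wildtype cells, a ratio of 5.08 (2.06 to 16.2).

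**Figure D5:**
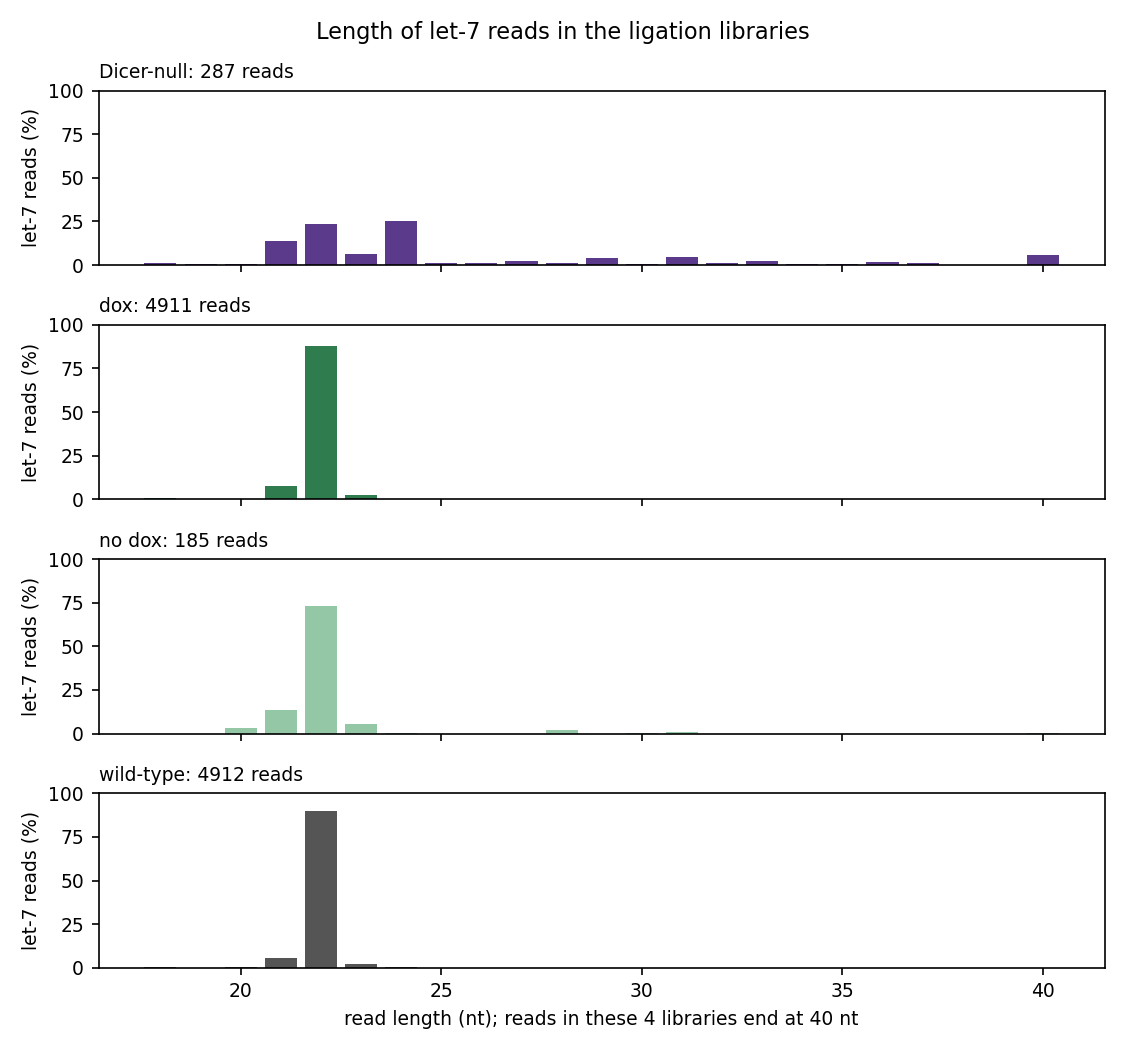
Length of let-7 reads in the 4 ligation libraries, as percent of the let-7 reads of each library, with the number of reads above each panel. In the dox, no dox and wildtype libraries most reads are 22 nt long, while in Dicer-null cells 25.1% are 24 nt, 24.4% are 28 nt or more, and the bar at 40 nt holds reads that reached the end of sequencing.

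The hairpins outside the family whose level over the 12 libraries was most like that of the family were Mir423, Mir433, Mir409, Mir1981 and Mir499, with Pearson correlations of log2(CPM + 1) of 0.992, 0.990, 0.989, 0.989 and 0.988. The median over all 287 features compared was 0.911, and these features share the libraries with the family.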

How the data were processed

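Each of the 12 deposited files held, for 1 library, distinct read sequences and a whole-number count of reads, as the authors deposited them, without a header. Adapter trimming, any filter and any aligner are not given in the sources used here. Reads of at least 18 nt were matched exactly, on the sense strand, to GENCODE M21 microRNA hairpins, and CPM was taken over the file total. A tail is 1 or 2 further bases at the 3′ end. Depth, 14474875 to 78762632 reads, sets the counting error; without molecular identifiers, reads are not independent molecules, so 95% intervals and the floor of 3 reads cover counting error only.

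Hairpin counts of the 8 circularized libraries were tested with edgeR 4.0.16 (R 4.3.3, limma 3.58.1): quasi-likelihood test, file total as library size, low counts filtered by filterByExpr, Benjamini-Hochberg over 698 features, threshold 0.05, 4 groups sharing one spread. Single values were compared by exact permutation (scipy 1.17.1). Ligation libraries were compared as ratios, called at 2-fold among features with at least 100 reads. Alternatives were TMM, hairpin reads as the total, DESeq2 1.42.0, no filter, reads of at least 20 nt, distinct sequences counted once, a replicate block, each library left out and, added after seeing the data, the first base left out of the match. The fit was tested on simulated data. Named were all 10 members, Mirlet7e, neighbouring hairpins and the 5 features most like the family. The members and lists were chosen with earlier results of these data known.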

Additional observations from a re-analysis of the deposited data

Results flagged for a closer look

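For 4 let-7 features the gain of IP over input differed between the lines, by a test of the difference itself (edgeR quasi-likelihood test, library totals, Benjamini-Hochberg adjustment over 698 features, n = 2 libraries a group). The tagged line's gain exceeded the untagged line's by 3.03 ± 0.88 (log2, SE) for Mirlet7c-1/Mirlet7c-2 (adjusted p = 0.0174) and by 2.92 ± 0.98 for Mirlet7i (adjusted p = 0.0221). It exceeded it by 2.73 ± 1.05 for Mirlet7g (adjusted p = 0.0330) and by 2.61 ± 1.07 for Mirlet7b (adjusted p = 0.0431). Of all features, 55.2% were called in this direction. Under TMM and DESeq2, 0 of these 4 were called, and Mirlet7g and Mirlet7b turned to the other direction, with −0.03 and −0.23 under TMM.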

How the results depend on the processing

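The calls rest on scaling to all reads. In the 4 comparisons with calls (11, 16, 13 and 4 features called higher for tagged over untagged IP, tagged IP over tagged input, untagged IP over untagged input, and the difference of the gains), 0 features were called under TMM, under DESeq2 and with hairpin reads as the total. The cause was not tested, here and for the values below. Leaving out each library in turn gave 5 to 12, 15 to 16, 0 to 13 and 0 to 7 features. With the first base left out of the match, 8 of 11 let-7 features were called in untagged IP over untagged input, where fewer let-7 features were tested. Of all 707 features, 367 were called higher there. Without a filter on low counts, 2 of 16 were called for the gains, beside 293 of 2292 over all features.

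The title code shared by libraries was used as a replicate block in one alternative. It gave 15, 16, 15 and 9 features in the 4 comparisons, in the order above. Of all 698 features, 564, 585, 390 and 422 were called higher. Same-numbered libraries' deviations correlated between 0.07 and 0.48, and the labels do not say what the code stands for.

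In single-value comparisons, the family level of tagged minus untagged IPs was −61.9 as CPM over hairpin reads. With each distinct sequence counted once, tagged IPs minus untagged IPs turned to 11.9 percentage points for the tailed share and 0.698 for the T tail; tagged IPs minus tagged inputs turned to 20.6 for the tailed share, 3.39 for the T tail and −24.9 for the share of 5p reads at the annotated start. Leaving out each library, tagged minus untagged IPs gave −1.80 to 1.26 for the tailed share, −1.09 to 1.51 for the A tail and −25.7 to 21.3 for the annotated start. Tagged IPs minus tagged inputs gave −0.405 to 0.737 for the A tail and −19.2 to 19.8 for the annotated start.

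Of single features, log2 values that turned sign are given for tagged IP over untagged IP and over tagged input, and for the 4 features called for the gains, in the order TMM, hairpin total where tested, and DESeq2. For tagged over untagged IP they were −0.93, −0.89 and −0.97 for Mirlet7a-1, −0.19, −0.22 and −0.25 for Mirlet7a-1/Mirlet7a-2, −0.88, −0.79 and −0.89 for Mirlet7a-1/Mirlet7c-2, and −0.12, −0.062 and −0.15 for Mirlet7a-2. They were −0.19, −0.041 and −0.19 for Mirlet7c-1, −0.25, −0.20 and −0.28 for Mirlet7d, −0.48, −0.52 and −0.54 for Mirlet7f-1/Mirlet7f-2, and −0.13, −0.13 and −0.17 for Mirlet7g. Without the hairpin total they were −0.35 and −0.41 for the feature of both let-7a and both let-7c genes, −0.85 and −0.82 for Mirlet7a-2/Mirlet7c-1, −0.77 and −0.80 for Mirlet7f-1, and −0.79 and −0.83 for Mirlet7f-2. Mirlet7i had −0.0047 under DESeq2. For tagged IP over tagged input they were −1.35, −1.29 and −1.50 for Mirlet7a-1, −1.36, −1.26 and −1.52 for Mirlet7a-1/Mirlet7c-2, −0.60 and −0.70 for the feature of both let-7a and both let-7c genes, −1.56 and −1.67 for Mirlet7f-2, and −0.027 under DESeq2 for Mirlet7b. For the gains they were −0.23, −0.24 and −0.32 for Mirlet7b, and −0.026, −0.064 and −0.15 for Mirlet7g. Called or not, 13 of 16 features' gains turned below 0 under TMM and 13 of 16 under DESeq2, down to −2.22 and −2.36, and 10 of 12 with the hairpin total, down to −1.72. For untagged IP over untagged input, 1 feature turned under each, to −0.95, −1.03 and −0.80.

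Between single libraries, scaling to hairpin reads left 3 features lower in Dicer-null than in wildtype cells, 1 higher and 1 lower for no dox over wildtype, and 5 higher and 0 lower for dox over wildtype. The counts over all features at this scale are given above. With a minimum of 20 reads, 1 of 11 was higher in Dicer-null than in wildtype cells (54 of 648 over all features). In this setting 1 of 8 was lower with than without doxycycline (15 of 508 over all features). With doxycycline, 3 of 9 were lower than in wildtype cells (311 of 600 over all features). With 2 libraries or 1 library a condition, and 226 to 410 let-7 reads in the inputs, differences between inputs smaller than their spread were not detectable.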
